A study of Mus musculus with 36 samples.

Results

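The comparison set 5 young knockout libraries (KO) against 4 young heterozygous libraries (HET), 9 of the 36 libraries of the series, chosen by their genotype labels, over all 11337 genes of the table. All were polyA RNA libraries of hindlimb muscle stem cells (MuSCs), 1 library for each 3-month-old male C57BL6 mouse. Every mouse carried Pax7_CreERT2, a tamoxifen-dependent Cre recombinase made in Pax7-expressing cells, and R26R_YFP, a fluorescent reporter of recombination. HET mice had 1 floxed copy of Ccnd1 (Ccnd1_+/flox) and KO mice had both copies floxed (Ccnd1_flox/flox). All received tamoxifen, and viable cells positive for YFP and negative for DAPI were sorted 6 weeks later, so Cre activity and tamoxifen were shared by both groups. Of the same cohort, 3 young libraries with intact Ccnd1 (Ccnd1_+/+, WT) and 3 WT libraries of 18-month-old mice entered the fit and are given for reference. Keratinocyte transcripts were present in the HET libraries and are set apart below.

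Satellite cells are the stem cells of skeletal muscle. They rest under the sheath of the muscle fibre in a quiescent state marked by Pax7, and enter the cell cycle after injury. Cyclin D1, the product of Ccnd1, binds the kinases Cdk4 and Cdk6, which phosphorylate the retinoblastoma protein Rb1 and so release E2F factors for entry into S phase. Cyclins D2 and D3 can bind the same kinases.

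Values were RPKM, reads per kb of gene length and per M of reads, and summed to between 273837 in HET 3 and 350969 in KO 2. Sequencing reached 20 to 40 M reads per the labels' protocols. The values keep no counts, so depth is unknown for any 1 library and counting intervals cannot be given. Log2 values of the 36 libraries lacked 6 of 35 possible directions of variation. The KO minus HET difference held 0% of its squared length in those directions, against 38.34% for KO minus WT and 35.05% for HET minus WT. WT levels are therefore given as a description with no test. Deviations of single HET and KO libraries from their group means held between 1.861% and 26.96% of their squared length in those directions. The spread within groups, and the standard errors below, may therefore be too small. The first principal component of the 9 libraries carried 38.6% of the variance and held the HET libraries between 0.19 and 0.51 and the KO libraries between -0.41 and -0.19.

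Ccnd1, on mm10 chromosome 7 (144929931 to 144939925, minus strand), checked the labels. Its level was 8.13, 6.37, 7.08 and 7.14 RPKM in HET 1 to 4 and 3.40, 2.47, 2.07, 2.72 and 2.88 RPKM in KO 1 to 5. It was 11.2, 10.6 and 13.3 RPKM in the young WT libraries. No KO library reached the lowest HET library, and no HET library reached the lowest WT library. Ccnd1 fell 2.68-fold from HET to KO (log2 -1.42 ± 0.14 SE, limma adjusted p = 0.00025), and the call held with each of the 9 libraries left out in turn. The floxed exons were not given in the sources used here. Reads from exons that stayed in place may be part of the level in KO libraries, and their share was not tested. In bulk libraries, fewer cells with a transcript and less of it per cell cannot be told apart.

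The other D-type cyclins and their partners did not pass the test between KO and HET. Ccnd2 was 5.08, 5.22, 4.27 and 5.39 RPKM in HET and 4.97, 4.70, 5.08, 4.73 and 4.74 RPKM in KO libraries (log2 -0.04 ± 0.11). The log2 difference was -0.12 ± 0.11 for Ccnd3, -0.40 ± 0.27 for Cdk6 and -0.05 ± 0.12 for Rb1, and Cdk4 was at 38.5, 34.5, 39.8 and 38.3 RPKM in HET and 36.8, 34.1, 28.8, 48.8 and 43.2 RPKM in KO libraries. The HET and KO ranges of each of these 5 genes overlapped. Cdk2, the kinase partner of cyclins E and A, was 5.85, 5.05, 5.45 and 5.42 RPKM in HET and 4.28, 4.15, 3.58, 4.21 and 4.14 RPKM in KO libraries, with no overlap. It fell 1.34-fold (log2 -0.42 ± 0.08, limma adjusted p = 0.0092), a call that held with each library left out. In young WT libraries Cdk2 was 5.52 to 6.36 RPKM, above all KO libraries and overlapping HET libraries. Ccnd1, the targeted gene, and Cdk2 were the 2 called among 24 genes for G1 cyclins, kinases, their inhibitors and the Rb and E2F families (median log2 -0.04). Both were lower, against 0.891% of all genes called lower and 5.15% called higher.

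**Figure D1:**
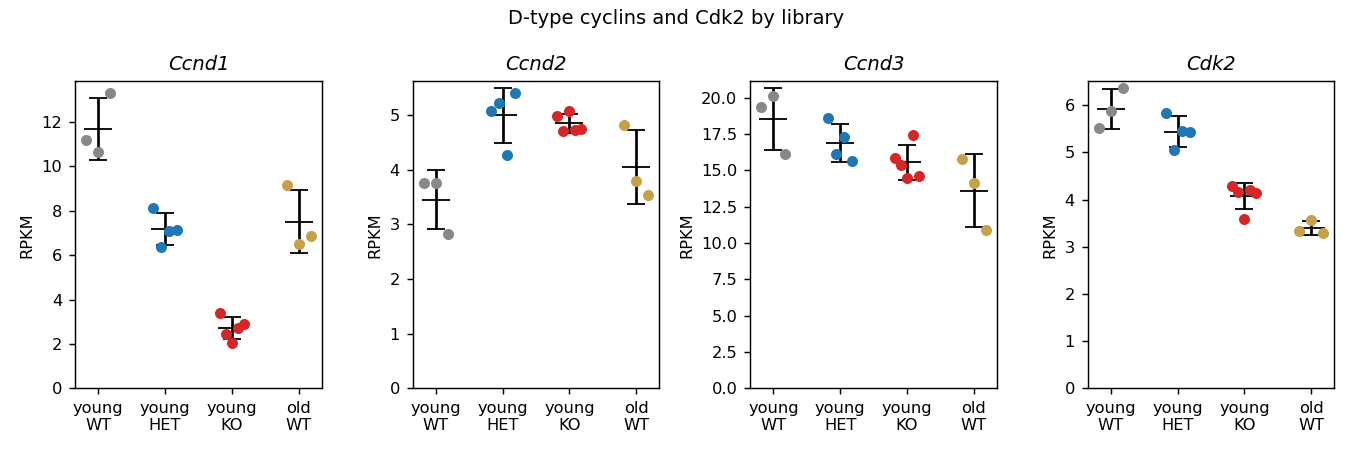
Levels in RPKM of Ccnd1, Ccnd2, Ccnd3 and Cdk2 in each library of 4 groups (points), with the group mean and SD (bars). For Ccnd1 the KO libraries lie between 2.07 and 3.40 RPKM, below the HET libraries at 6.37 to 8.13, while Ccnd2 and Ccnd3 overlap between HET and KO.

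The 4 largest differences of the table were all keratins, lower in KO. Krt14 and Krt5, the keratin pair of basal epidermis, were high in all 4 HET libraries. Krt14 was 41.8, 31.9, 42.8 and 95.8 RPKM in HET 1 to 4 and between 0.00545 and 0.0471 RPKM in the KO libraries. Krt5 was 24.2, 14.3, 19.9 and 35.8 RPKM in HET 1 to 4 and between 0.00571 and 0.0636 RPKM in the KO libraries. Both were at most 0.032 RPKM in young WT libraries. In the old WT libraries they were near 0 in 2 and present in old WT 2, at 2.92 RPKM for Krt14 and 1.62 RPKM for Krt5. The table holds no exact 0, so linear folds against such low values are not given, and log2 differences of these genes rest on KO values near 0.

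Of 21 measured genes of the epidermal keratinocyte marker list, 15 were called lower in KO, 0 higher and 6 not called (median log2 -3.18). The HET and KO libraries did not overlap for 16. The background over the table was 0.891% of genes called lower and 1.8% with every KO library below every HET library. The list has 37 genes, and only the 21 in the table could be counted. Genes near 0 in KO and young WT libraries, such as Krt14 and Krt5, may be in the table only through libraries where they are high. The shares of this list are therefore a description and no test. The summed level of the list was 161.7 to 318.1 RPKM in HET, 57.5 to 69.2 RPKM in KO, 63.1 to 70.2 RPKM in young WT and 57.5 to 87.5 RPKM in old WT libraries. Krt15, another basal keratin, was 20.0, 9.10, 12.1 and 10.9 RPKM in HET 1 to 4 against at most 0.0679 RPKM in KO libraries. The junction and stress genes Perp and Sfn were at 10.8 to 22.6 RPKM and 10.5 to 29.1 RPKM in HET libraries and at 2.23 to 4.16 RPKM and 1.16 to 4.31 RPKM in KO libraries. The 4 markers Sbsn, Jup, Itga6 and Itgb4, which other cells also make, had log2 differences between -0.05 and 0.20 and overlapped. 

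Genes were set apart from the rest of the comparison when they were on the keratinocyte list or when their level, centred within each of the 4 groups of the cohort, followed Krt14 and Krt5 with a Pearson r of at least 0.8 over 15 libraries. The second rule does not use the KO minus HET difference. It took 7 genes, among them Krt14, Krt5, Calm4, Krt16, Krt15 and Pla1a, of which 4 were not on the list. Aqp3 at 0.79 and Vcp at 0.76 were the nearest below the threshold. On the log scale the widest spread of Krt14 within a group was in old WT libraries. It was 2.92 RPKM in old WT 2 against 0.0109 and 0.00919 RPKM in old WT 1 and 3. The r therefore rests largely on old WT 2. Perp and Sfn, both higher in HET than in KO libraries, had an r of 0.30 and 0.11 and were set apart through the list alone. Together 25 genes were set apart and 19 of them were called. Pla1a, which encodes a phospholipase, was the only one of the 7 that was higher in KO, at 1.23 to 1.66 RPKM against 0.518 to 0.567 RPKM in HET libraries.

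The rule left some epithelial genes in. Serpinb2, a protease inhibitor known from epidermis and macrophages, was 23.5, 6.64, 10.5 and 34.2 RPKM in HET 1 to 4 and 0.132 to 1.39 RPKM in KO libraries, and among old WT libraries it was highest in old WT 2 at 5.02 RPKM. Trim29, Lypd3 and Sprr1a, chosen after their values were seen and known from stratified epithelium, were at 1.97 to 3.55, 2.79 to 5.57 and 1.62 to 11.6 RPKM in HET libraries. In KO libraries they were at most 0.379, 0.0596 and 1.48 RPKM. Of the 35 genes called over 2-fold lower in KO, 18 were set apart and 17 were not, and these 4 genes and Ccnd1 were among the 17.

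**Figure D2:**
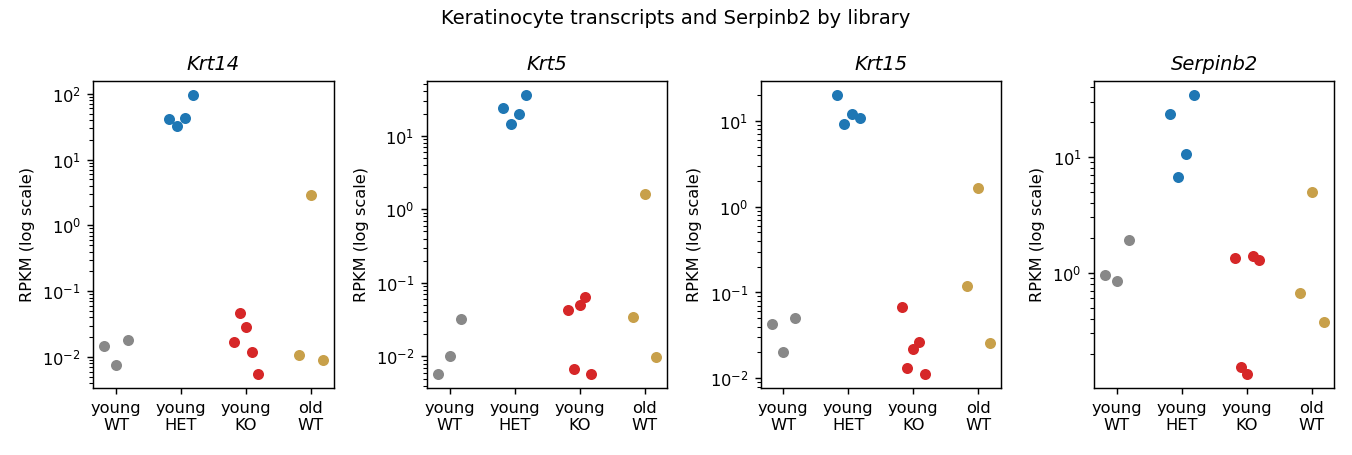
Levels of Krt14, Krt5, Krt15 and Serpinb2 in RPKM on a log axis, 1 point per library. The 4 HET libraries stand above all KO and young WT libraries for each gene, and old WT 2 is the highest of the 3 old WT libraries.

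Over the whole table, 685 of 11337 genes (6.04%) were called by limma at an adjusted p under 0.05, 584 higher (5.15%) and 101 lower (0.891%) in KO. Without the 25 genes set apart the counts were 583 higher and 83 lower. Changes over 2-fold were called for 35 genes in each direction, and the called increases had a median log2 of 0.47. The median log2 of all genes was 0.08. Scaling by the median of ratios, which moved that median to -0.004, gave 213 higher and 130 lower calls, so that 62.1% of calls were increases against 85.3% on the deposited scale. Leaving out HET 3 left 265 calls, HET 4 324, HET 1 370, KO 3 397 and KO 5 438. With the 9 HET and KO libraries alone, limma called 327. The keratin difference stands beside every other call, and its part in them was not tested. Of the variance of the mean of log2 Krt14 and Krt5 over the 15 libraries, 88.3% lay between the groups.

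**Figure D3:**
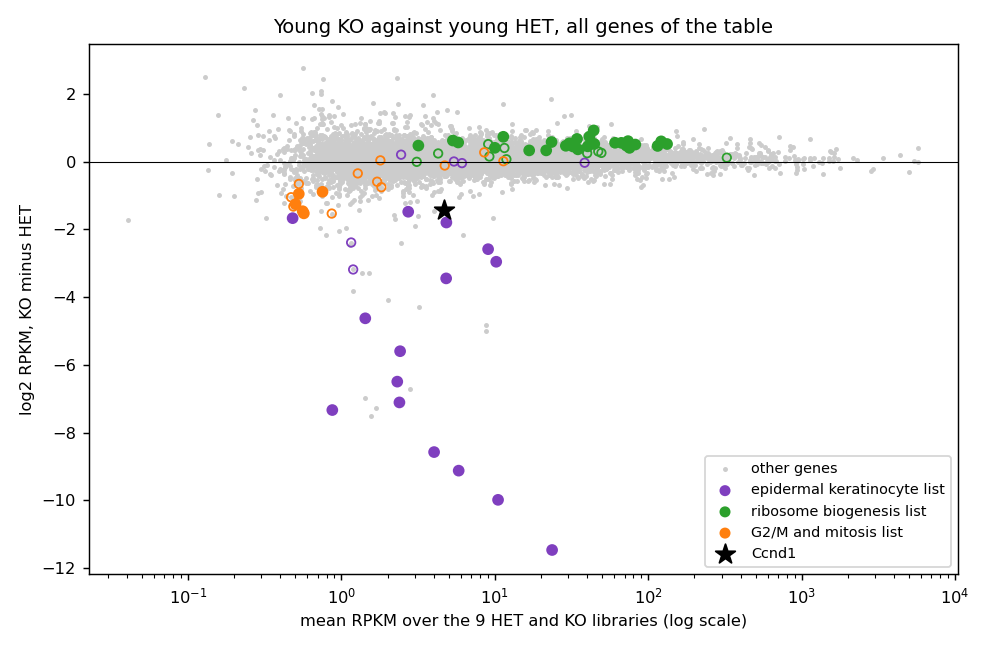
Log2 difference KO minus HET against the mean RPKM of the 9 libraries (log axis) for all genes (grey), with the keratinocyte, ribosome biogenesis and G2/M lists in colour and filled where called. Keratinocyte genes reach a log2 of -11.46, 36 of 37 ribosome biogenesis genes lie above 0, and called G2/M genes lie below 0 at levels under 1 RPKM.

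Most genes for making ribosomes were higher in KO cells. The list holds factors of the nucleolus that transcribe, process and fold ribosomal RNA into subunits. Of 37 measured genes, 27 were called higher in KO, 0 lower and 10 not called, against 5.15% of all genes called higher. The KO libraries lay above all HET libraries for 26 of the 37, against 8.34% of all genes. The median log2 of the list was 0.47 and the called increases ran from 1.26-fold to 1.89-fold. With median-of-ratios scaling 17 of the 37 were called higher and 0 lower, and the median was 0.38. Without HET 3, which had the lowest of the 9 values for 28 of the 37 genes, 20 were called and the median was 0.37.

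Subunits of RNA polymerase I, which transcribes the ribosomal RNA precursor, were split. Polr1e was 3.99, 4.30, 3.73 and 4.26 RPKM in HET and 6.59, 4.75, 5.74, 7.15 and 7.42 RPKM in KO libraries, with no overlap. It rose by a log2 of 0.62 ± 0.12 and Polr1b by 0.56 ± 0.13 (limma adjusted p = 0.0077 and 0.021). Polr1a (0.24 ± 0.09) and Polr1c (0.30 ± 0.12) were not called, nor was Ubtf (0.07 ± 0.11), which encodes the upstream binding factor of that polymerase.

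All 6 core proteins of small nucleolar ribonucleoproteins in the list, which modify ribosomal RNA, were called. Of the box C/D proteins, the methyltransferase Fbl rose by 0.45 ± 0.10, Nop56 by 0.60 ± 0.14 and Nop58 by 0.40 ± 0.10 on the log2 scale. Of the box H/ACA proteins, the pseudouridine synthase Dkc1 rose by 0.33 ± 0.08, Gar1 by 0.67 ± 0.12 and Nhp2 by 0.60 ± 0.11. Gar1 was 28.1, 29.0, 19.4 and 27.6 RPKM in HET and 36.7, 38.4, 42.2, 40.7 and 46.8 RPKM in KO libraries. The HET and KO ranges of these 6 genes did not overlap.

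Assembly factors of the large subunit showed the lowest p-values. Pes1, of the PeBoW complex, was 23.4, 23.8, 24.1 and 24.4 RPKM in HET and 31.5, 30.5, 32.8, 34.6 and 36.1 RPKM in KO libraries. It rose 1.38-fold (log2 0.47 ± 0.07, limma adjusted p = 0.0021). Its partners Bop1 and Wdr12 rose by 0.33 ± 0.07 and 0.47 ± 0.10. Nop2, an RNA methyltransferase, was 27.9, 27.6, 23.6 and 26.9 RPKM in HET and 35.3, 36.3, 36.6, 38.4 and 43.6 RPKM in KO libraries and rose 1.43-fold (log2 0.52 ± 0.08, limma adjusted p = 0.0028). The Pes1 and Nop2 calls held with each of the 9 libraries left out. Rrs1, a factor of the 5S particle, had the largest change in the list and rose 1.89-fold, from 31.0, 38.4, 21.1 and 29.0 RPKM to 48.4, 53.5, 57.9, 56.8 and 60.4 RPKM (log2 0.92 ± 0.15, limma adjusted p = 0.0039).

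Among factors of the small subunit, Rrp9 rose by a log2 of 0.74 ± 0.12, Rrp12 by 0.73 ± 0.14 and Tsr1 by 0.58 ± 0.12. The factors Utp20, Bms1, Utp4, Nop14 and Utp18 were not called (log2 -0.01 to 0.40), nor was the nucleolar chaperone Npm1 at 287 to 347 RPKM in HET and 292 to 366 RPKM in KO libraries. The nucleolar GTPase Gnl3 rose by 0.52 ± 0.12 and nucleolin, Ncl, by 0.46 ± 0.11.

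The summed level of the 37 genes was 1257 to 1681 RPKM in HET, 1812 to 2108 RPKM in KO, 1447 to 1564 RPKM in young WT and 2258 to 2308 RPKM in old WT libraries. KO libraries were all above HET and young WT libraries and all below old WT libraries. Of 79 genes for the cytosolic ribosomal proteins themselves, 0 were called by limma and 3 had an unadjusted p under 0.05, all higher (median log2 0.11). That threshold was reached by 2571 of all 11337 genes, and the median log2 of all genes was 0.08. With median-of-ratios scaling the median of the 79 genes was 0.03. The summed level of the 79 genes overlapped, at 20017 to 26641 RPKM in HET and 21387 to 27443 RPKM in KO libraries.

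**Figure D4:**
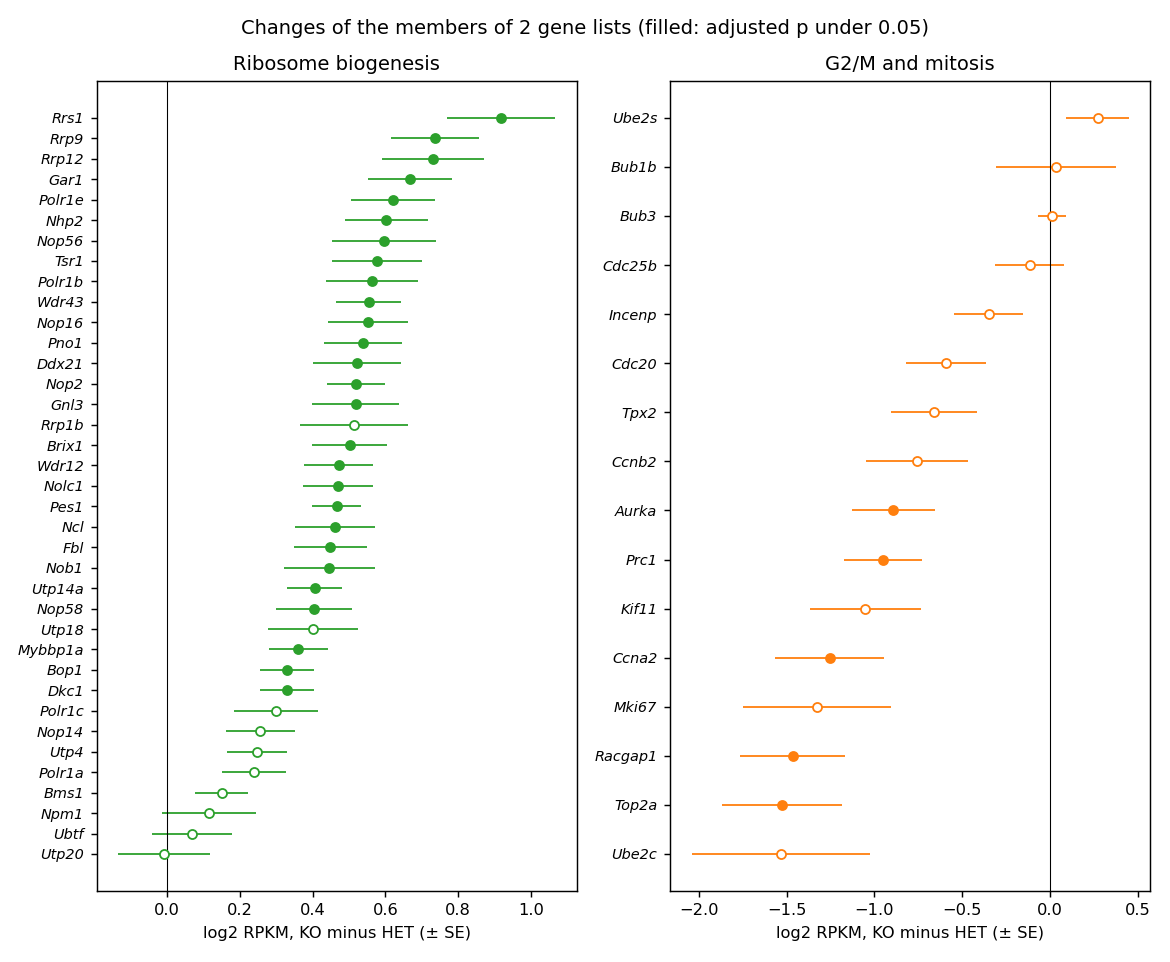
Log2 difference KO minus HET with its SE for each member of the ribosome biogenesis list (37 genes) and of the G2/M list (16 genes), filled where called. Of the ribosome biogenesis genes 36 lie above 0, and of the G2/M genes 13 lie below 0.

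Of the mitotic genes, 5 at low levels fell in KO. The list holds genes of G2 and mitosis, which are transcribed in dividing cells. Of 16 measured genes, 5 were called lower in KO (Top2a, Racgap1, Ccna2, Prc1 and Aurka), 0 higher and 11 not called (median log2 -0.82). The background was 0.891% called lower. All 5 had a mean under 1 RPKM over the 9 libraries. The list has 32 genes, and only the 16 in the table could be counted. Genes at such low levels may be in the table only through libraries where they are higher. The shares of this list are therefore a description and no test. Of the 7 genes that passed a filter at 1 RPKM, 0 were called by limma and their median log2 was -0.12. The KO libraries lay below all HET libraries for 8 of 16, against 1.8% of all genes. With HET 3 left out 0 were called, with HET 1 left out 1, and with HET 4, KO 2, KO 3 or KO 5 left out 3. HET 3 had the highest value of the 9 libraries for 8 of the 16. With the 9 libraries alone, limma called 1.

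Top2a, the topoisomerase that untangles chromosomes, was 0.940, 0.651, 0.967 and 0.916 RPKM in HET and 0.438, 0.139, 0.204, 0.446 and 0.421 RPKM in KO libraries. It fell by 1.53 ± 0.34 on the log2 scale (limma adjusted p = 0.019). The call was lost without HET 1, HET 3 or HET 4 (adjusted p 0.053, 0.063 and 0.055). Racgap1, a regulator of cytokinesis, was 0.900, 0.622, 1.18 and 0.740 RPKM in HET and 0.439, 0.273, 0.177, 0.407 and 0.294 RPKM in KO libraries. It fell by 1.47 ± 0.30 (limma adjusted p = 0.012), and without HET 3 the adjusted p was 0.0505. The HET and KO libraries of both genes were apart. In young WT libraries Top2a was 1.04 to 1.84 RPKM, above all HET and KO libraries. Racgap1 was 0.893 to 1.35 RPKM there, above all KO libraries and overlapping HET libraries.

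Ccna2, which encodes cyclin A2, fell by 1.26 ± 0.31, the spindle gene Prc1 by 0.95 ± 0.22 and the mitotic kinase gene Aurka by 0.89 ± 0.24 on the log2 scale. Mki67, the proliferation antigen, was 0.760, 0.638, 0.634 and 0.723 RPKM in HET and 0.583, 0.142, 0.134, 0.462 and 0.301 RPKM in KO libraries. These did not overlap, and its log2 of -1.33 ± 0.42 was not called (limma adjusted p = 0.077). Ube2c was split in KO, at 1.48 RPKM in KO 1 and 0.200 to 0.479 RPKM in the others. KO 1 had the highest Mki67, Ube2c and Ccna2 of the KO libraries. Of the S phase and replication licensing genes, Rfc3 alone was called among 37 (log2 -0.50 ± 0.12, median of the list -0.02), against 0.891% of all genes called lower. The Rfc3 call was lost in 5 of the 9 omissions (adjusted p up to 0.087).

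The promoters of the called G2/M genes are shown because known motifs of such genes can be looked up in them. A pair of short motifs known from such promoters were searched on both strands, the cell cycle homology region TTTGAA and the CCAAT box CCAAT. The window ran from 250 bases before to 50 bases after the start of 1 RefSeq promoter per gene (GRCm38.p6), and 8862 of the 11337 genes had one. TTTGAA was in 11 of 13 matched G2/M promoters (84.6%) and in 11.3% of all promoters, and CCAAT in 12 of 13 (92.3%) and in 38.3% of all. Of the 5 called genes, 4 matched, and all 4 held both motifs. For the 250 bases before the start, which are printed 5′ to 3′ with the motifs of either strand in capitals, TTTGAA was in 7 of 13 (53.8%) and in 10.2% of all promoters. A match is a description of letters, not of a site in use.
Top2a: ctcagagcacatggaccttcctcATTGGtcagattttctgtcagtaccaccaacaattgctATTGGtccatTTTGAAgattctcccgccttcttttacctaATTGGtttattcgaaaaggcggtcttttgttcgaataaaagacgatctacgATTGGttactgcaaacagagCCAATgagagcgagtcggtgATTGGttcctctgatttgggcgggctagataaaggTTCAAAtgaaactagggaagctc
Racgap1: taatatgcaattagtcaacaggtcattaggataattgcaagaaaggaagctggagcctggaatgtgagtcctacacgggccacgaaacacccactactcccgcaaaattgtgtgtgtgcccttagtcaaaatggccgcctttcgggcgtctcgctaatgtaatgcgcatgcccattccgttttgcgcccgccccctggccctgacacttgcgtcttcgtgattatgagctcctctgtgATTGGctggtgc
Prc1: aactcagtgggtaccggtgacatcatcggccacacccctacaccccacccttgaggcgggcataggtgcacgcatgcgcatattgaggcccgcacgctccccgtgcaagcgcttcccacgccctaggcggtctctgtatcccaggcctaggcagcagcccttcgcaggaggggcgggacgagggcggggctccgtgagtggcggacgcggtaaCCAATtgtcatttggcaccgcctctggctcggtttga
Aurka: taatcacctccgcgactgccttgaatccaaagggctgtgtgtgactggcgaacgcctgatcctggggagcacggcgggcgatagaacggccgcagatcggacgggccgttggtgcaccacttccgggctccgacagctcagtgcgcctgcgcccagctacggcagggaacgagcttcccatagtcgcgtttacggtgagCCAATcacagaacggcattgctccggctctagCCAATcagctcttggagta
These stretches lie at chr11:99024190-99024439 on the minus strand (Top2a), chr15:99651657-99651906 on the minus strand (Racgap1), chr7:80294201-80294450 on the plus strand (Prc1) and chr2:172370571-172370820 on the minus strand (Aurka). Top2a holds 6 CCAAT and 2 TTTGAA matches in the printed stretch, Aurka 2 CCAAT matches, and Racgap1 and Prc1 1 CCAAT match each. The TTTGAA matches of Racgap1, Prc1 and Aurka lie in or across the 50 bases after the start, which are not printed.

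Among ribosome biogenesis promoters the E-box CACGTG was searched in the same way. It was in 9 of 32 matched promoters (28.1%) against 10.7% of all in the full window, but in 2 of 32 (6.25%) against 8.82% of all in the 250 bases before the start. Nop2 has 1 match near the start, at chr6:125131633-125131882 on the plus strand.
Nop2: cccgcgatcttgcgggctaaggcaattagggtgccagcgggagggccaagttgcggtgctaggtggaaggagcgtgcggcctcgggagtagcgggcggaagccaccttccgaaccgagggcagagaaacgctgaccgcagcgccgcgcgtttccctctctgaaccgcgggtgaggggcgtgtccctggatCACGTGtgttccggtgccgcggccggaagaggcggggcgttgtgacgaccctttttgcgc

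Among genes of satellite cell identity, Pax7 was 16.0, 16.3, 19.6 and 19.5 RPKM in HET and 19.1, 24.6, 17.7, 22.1 and 18.5 RPKM in KO libraries, which overlapped (log2 0.19 ± 0.11). Pax7 in young WT libraries was 21.9 to 29.2 RPKM, above all HET libraries and overlapping the KO libraries. Of 31 genes of identity and quiescence, 2 were called higher (6.45%, against 5.15% of all genes) and 0 lower (median log2 0.12). With median-of-ratios scaling 0 were called higher and 1 lower. Des, which encodes the muscle intermediate filament desmin, rose by 0.41 ± 0.11, and the growth factor receptor Fgfr1 by 0.48 ± 0.13. Each lost its call in 6 of 9 omissions of a library (adjusted p up to 0.12). Des in young WT libraries was 422 to 428 RPKM, above all HET libraries at 265 to 349 RPKM and within the KO range of 381 to 506 RPKM. Cd34, Vcam1 and Calcr were not called (log2 0.13 ± 0.11, 0.29 ± 0.14 and -0.09 ± 0.13).

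Of the myogenic regulators, Myod1, which encodes the factor of activated and committed cells, was 585, 643, 368 and 508 RPKM in HET and 953, 1042, 810, 624 and 886 RPKM in KO libraries. KO 4 lay below HET 2, and the other KO libraries lay above all HET libraries. Myod1 rose 1.65-fold (log2 0.72 ± 0.20, limma adjusted p = 0.046), and this call was lost in 7 of 9 omissions (adjusted p up to 0.15). Myf5 was 141, 117, 110 and 72.4 RPKM in HET and 179, 301, 192, 140 and 138 RPKM in KO libraries and was not called (log2 0.77 ± 0.23, limma adjusted p = 0.059). Myf5 in young WT libraries was 172 to 234 RPKM, above all HET libraries and within the KO range. Myod1 was 467 to 828 RPKM there, overlapping both groups. The differentiation factor Myog was not called either (log2 -0.91 ± 0.32, adjusted p = 0.10). The cardiac actin gene Actc1, which rises in differentiating myoblasts, fell by 1.19 ± 0.33 with overlapping ranges, and its call was lost in 8 of 9 omissions (adjusted p up to 0.11). In all 1 of 18 genes of this list was called in each direction, against 5.15% of all genes higher and 0.891% lower.

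A few tendon genes were higher in KO libraries. Of 10 measured markers of tenocytes, 3 were called higher, 0 lower and 7 not called (median log2 0.87), and the KO libraries lay above all HET libraries for 5. Of all genes, 5.15% were called higher and 8.34% had KO above HET. With median-of-ratios scaling, with all 36 libraries, or without HET 2, HET 3, KO 3 or KO 5, 1 gene of the list was called. Mkx, a transcription factor of tendon, was 1.87, 1.68, 1.58 and 1.68 RPKM in HET and 3.45, 4.20, 3.19, 2.99 and 3.46 RPKM in KO libraries. It rose 2.02-fold (log2 1.01 ± 0.21, limma adjusted p = 0.011), and the call held in each omission. In young WT libraries Mkx was 3.78, 4.91 and 2.25 RPKM, above all HET libraries and overlapping the KO libraries. The tendon factor Scx rose by 0.96 ± 0.25 with overlapping ranges and lost its call in 6 of 9 omissions (adjusted p up to 0.090). The matrix gene Comp was 5.13, 5.10, 5.07 and 7.66 RPKM in HET and 9.14, 8.74, 14.2, 8.16 and 15.4 RPKM in KO libraries. It rose by 0.93 ± 0.25, and lost its call in 5 of 9 omissions (adjusted p up to 0.12). Fmod, Tnmd and Thbs4 did not overlap between the groups, and Fmod (1.10 ± 0.39), Tnmd (0.89 ± 0.35) and Thbs4 (0.78 ± 0.39) were not called.

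The 2 largest called increases of a named protein-coding gene at a mean of at least 5 RPKM were secreted proteins of connective tissue. Angptl7, an angiopoietin-like protein, was 8.11, 10.6, 9.88 and 8.60 RPKM in HET and 24.8, 41.7, 45.1, 25.3 and 33.7 RPKM in KO libraries. It rose 3.58-fold (log2 1.84 ± 0.35, limma adjusted p = 0.0093), a call that held in each omission. Chad, the cartilage matrix protein chondroadherin, was 16.3, 15.0, 17.7 and 17.7 RPKM in HET and 40.1, 48.6, 53.3, 32.5 and 41.8 RPKM in KO libraries. It rose by 1.36 ± 0.32, and its call was lost in 7 of 9 omissions (adjusted p up to 0.066). In young WT libraries the spread was wide, at 6.04 to 27.2 RPKM for Angptl7 and 13.0 to 51.6 RPKM for Chad. KO 3 and KO 5 had the highest Comp, Tnmd and Thbs4. Whether the sorted cells or other cells in the sort held these transcripts was not tested. The summed level of the tenocyte list was 1342 to 1582 RPKM in HET and 1289 to 1755 RPKM in KO libraries, overlapping because Egr1 and Chodl made up most of it.

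**Figure D5:**
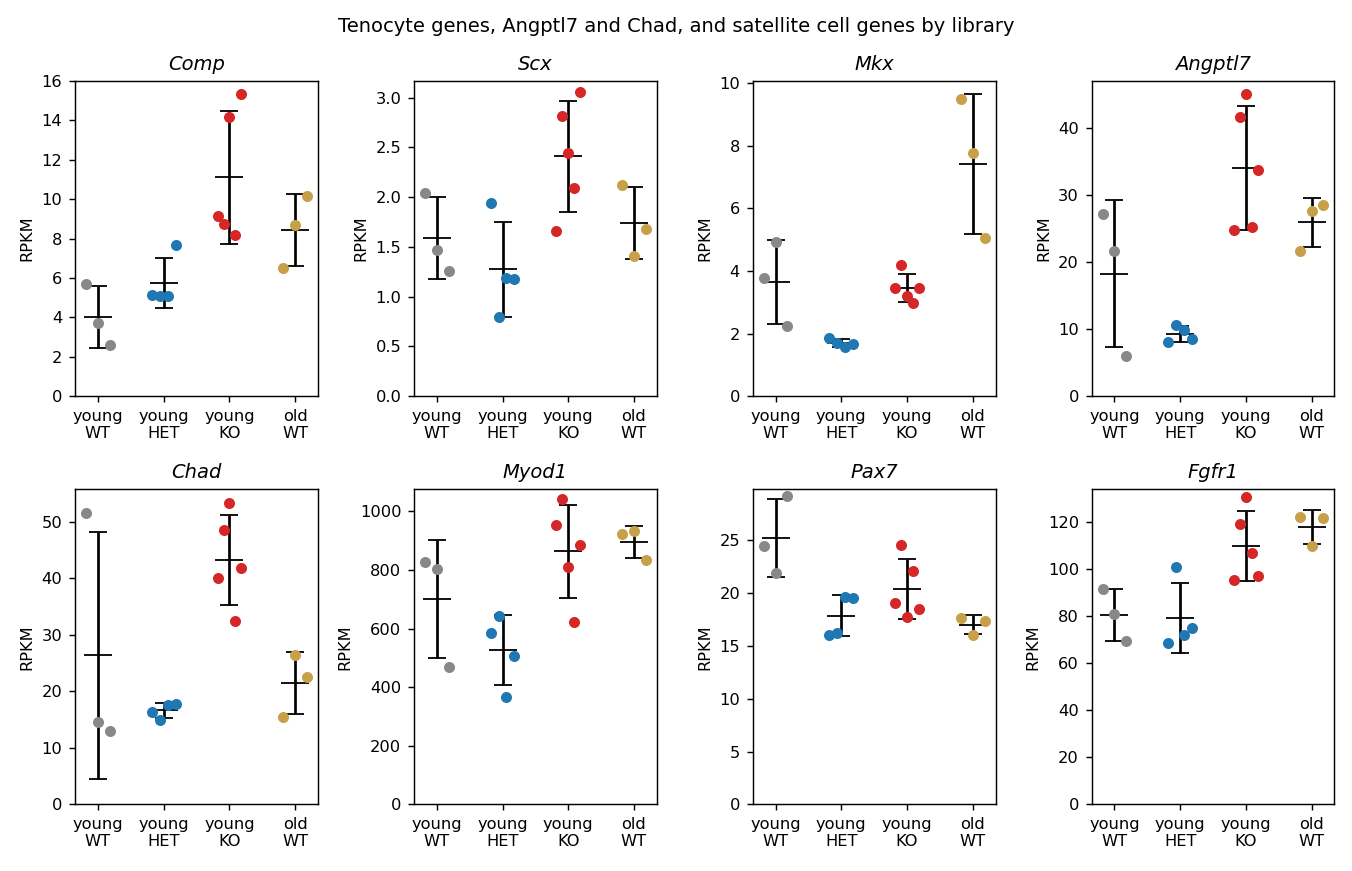
Levels in RPKM of the tenocyte genes Comp, Scx and Mkx, of Angptl7 and Chad, and of Myod1, Pax7 and Fgfr1 in each library of 4 groups, with group mean and SD. KO libraries lie above all HET libraries for Comp, Mkx, Angptl7 and Chad, and overlap HET for Scx, Myod1, Pax7 and Fgfr1.

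Markers of other cells were looked at in the same way. Among 13 fibro-adipogenic markers, Igfbp6 alone was called, against 5.15% of all genes called higher. Igfbp6 rose by 0.71 ± 0.17 (call lost in 5 of 9 omissions, adjusted p up to 0.082). The median log2 of the fibro-adipogenic list was 0.54, and its summed level was 613 to 707 RPKM in HET and 849 to 1029 RPKM in KO libraries, with no overlap. It was 842 to 1483 RPKM in young WT and 1075 to 1210 RPKM in old WT libraries, all above the HET libraries. In limma, 0 genes were called among 18 haematopoietic (median log2 -0.33), 16 endothelial (0.11), 12 glial (-0.07), 12 smooth muscle and pericyte (-0.07), 15 myofibre (-0.32), 3 B and plasma cell (-0.94) and 4 erythroid markers (0.19). An unadjusted p under 0.05 was reached by 2571 of all 11337 genes. In these lists it was reached by 1 smooth muscle and pericyte and 1 B and plasma cell gene, both lower. In the other 5 lists it was reached by 0. The summed levels of these lists overlapped between HET and KO. Timd4 and Cd209b, known from resident macrophages and chosen after their values were seen, were highest in HET 3, at 5.75 and 11.1 RPKM, and at most 0.336 and 0.416 RPKM in KO libraries. These values set 1 HET library against the KO libraries and describe no difference between the groups. Neither gene is on the haematopoietic list, of which 0 of 18 were called.

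Other large increases at a mean of at least 5 RPKM included Cited2, Hgh1 and Vgll3, whose calls held in each omission. Cited2, a transcriptional co-regulator, was 24.7, 40.3, 20.2 and 34.6 RPKM in HET and 57.1, 70.6, 62.8, 47.6 and 60.0 RPKM in KO libraries. It rose 2.05-fold (log2 1.03 ± 0.20, limma adjusted p = 0.0092). Hgh1 rose 2.06-fold, from 3.28, 4.54, 2.54 and 2.74 RPKM to 5.71 to 7.93 RPKM. In young WT libraries Hgh1 was 2.94 to 3.64 RPKM, within the HET range, and Cited2 was 34.5 to 55.7 RPKM, overlapping both groups. Vgll3, a cofactor of TEAD factors, rose by 0.92 ± 0.19 on the log2 scale, and in young WT libraries it was at least 21.4 RPKM, above all HET libraries at 9.94 to 14.6 RPKM and within the KO range of 16.5 to 35.1 RPKM. No HET library reached a KO library for these 3 genes. Neu2, a sialidase, was 106, 199, 128 and 177 RPKM in HET and 288, 387, 273, 221 and 298 RPKM in KO libraries. In young WT libraries it was 226 to 289 RPKM, above all HET libraries and overlapping the KO libraries. It rose by 0.97 ± 0.21, and the call was lost without HET 1 or HET 3 (adjusted p 0.051 and 0.061). Fam46a rose by 1.06 ± 0.29 (call lost in 6 of 9 omissions, adjusted p up to 0.13). Mir7052, a microRNA locus on chromosome 7 (44470347 to 44470411, mm10) whose polyA reads may come from an overlapping transcript, rose by 1.46 ± 0.40, and its call was lost in 8 of 9 omissions (adjusted p up to 0.14).

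Loxl1, which crosslinks elastin, was 13.8, 11.9, 10.1 and 11.7 RPKM in HET and 19.5, 18.1, 22.3, 22.4 and 27.3 RPKM in KO libraries and rose 1.84-fold (log2 0.88 ± 0.13, limma adjusted p = 0.0023). It was the 1 gene called of 47 for extracellular matrix, against 5.15% of all genes called higher. Ndn, the imprinted gene of necdin, which restrains growth, was nearly constant in HET at 2.87, 2.96, 2.95 and 2.92 RPKM. It was 5.13, 5.48, 5.29, 6.31 and 5.75 RPKM in KO libraries and rose 1.91-fold (log2 0.93 ± 0.11, limma adjusted p = 0.00085), the 1 of 19 imprinted growth genes called. The calls of both held in each omission. Ndn in young WT libraries was 4.18, 4.81 and 6.17 RPKM, above all HET libraries and overlapping the KO libraries.

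The called decreases outside the genes set apart were mostly under 2-fold. Sin3a, which encodes the scaffold of a histone deacetylase complex, was 15.5, 16.1, 17.4 and 16.3 RPKM in HET and 10.8, 11.1, 13.0, 9.68 and 10.5 RPKM in KO libraries, without overlap. It fell 1.49-fold (log2 -0.58 ± 0.09, limma adjusted p = 0.0025). Zc3h12a, an RNase that limits inflammatory transcripts, was 36.8, 41.1, 35.5 and 39.8 RPKM in HET and 18.0, 19.7, 31.7, 19.9 and 24.3 RPKM in KO libraries. It fell by 0.78 ± 0.15, and its level in young WT libraries was 17.7 to 22.6 RPKM, overlapping KO and below HET libraries. Aif1l fell by 0.88 ± 0.15 and Mpp2 by 0.56 ± 0.11. These 4 calls held in each omission. Kctd11, a Hedgehog pathway antagonist, fell by 0.80 ± 0.18, and its call was lost without HET 1 or HET 4 (adjusted p 0.055 and 0.060). Samd8 fell by 0.58 ± 0.14, a call lost without HET 3, HET 4 or KO 3 (adjusted p 0.074, 0.059 and 0.056). Kdelr3 fell by 0.67 ± 0.18, Itpkc by 0.56 ± 0.16 and the tubulin-binding gene Stmn1 by 0.56 ± 0.15, and these lost their calls in 5, 7 and 7 of the 9 omissions (adjusted p up to 0.13, 0.16 and 0.12).

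Signalling pathways with a known part in satellite cells showed few calls. Over all genes, 5.15% were called higher and 0.891% lower. In limma 0 of 32 TGF-beta and Smad genes, 0 of 21 BMP and Id genes and 0 of 25 Wnt genes were called in either direction (median log2 0.09, 0.09 and 0.20). At an unadjusted p under 0.05 there were 10, 3 and 5, against 2571 of all 11337 genes. Smad3 was 16.9, 24.8, 18.6 and 17.1 RPKM in HET and 14.5, 13.4, 19.7, 22.6 and 22.1 RPKM in KO libraries (log2 -0.08 ± 0.17), and Tgfb1 had a log2 of -0.10 ± 0.17. Both overlapped between the groups. Of 27 Notch genes the modifier Rfng rose by 0.34 ± 0.08 (call lost in 5 of 9 omissions, adjusted p up to 0.095). Of 28 JAK/STAT genes the feedback inhibitor Socs1 rose by 0.70 ± 0.16 (lost without HET 1 or HET 3, adjusted p 0.059 and 0.066). Of 29 NF-kB genes the inhibitor family member Nfkbid fell by 0.71 ± 0.19 (lost in 7 of 9 omissions, adjusted p up to 0.13), and of 34 immediate early genes Ier5 rose by 0.46 ± 0.11 (lost in 4, up to 0.078). Fgfr1 was the 1 of 30 FGF and ERK feedback genes called, and Vgll3 the 1 of 28 YAP and TEAD genes.

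Metabolic and stress lists gave small counts of called genes. Of 33 NRF2 antioxidant genes 4 were called higher (12.1%, against 5.15% of all genes) and 0 lower (median log2 0.24), and they were Gstp1, Gstm1, Gclc and Srxn1. With median-of-ratios scaling 1 was called higher, and 0 in the oxidative phosphorylation and the heat shock and proteasome lists. Gclc, the catalytic subunit for glutathione synthesis, rose by 0.63 ± 0.15 and Srxn1, sulfiredoxin, by 0.70 ± 0.16. Gclc lost its call in 4 of 9 omissions and Srxn1 in 3 (without HET 1, HET 3 or KO 5, adjusted p 0.060, 0.076 and 0.051). Of 66 nuclear genes of oxidative phosphorylation 2 were called higher, the electron carrier Cycs (0.36 ± 0.10) and Cox5b (0.32 ± 0.09), with a median log2 of 0.20. Of 49 heat shock and proteasome genes 2 were called higher, Psmc5 (0.34 ± 0.08) and Psmd7 (0.32 ± 0.08). These 4 calls were lost in 8, 7, 4 and 6 of 9 omissions, each of which included HET 3. An unadjusted p under 0.05 in limma was reached by 27 of the 66 oxidative phosphorylation genes, all higher. It was reached by 11 of the 33 NRF2 and 15 of the 49 heat shock and proteasome genes, also all higher. Among all genes it was reached by 2571 of 11337. Of 39 lysosome and autophagy genes Neu2 and Atg3 (0.42 ± 0.09, lost without HET 3, adjusted p 0.062) were called higher and Wipi1 (-0.50 ± 0.10, held in each) lower. Of 27 p53 pathway genes Perp, set apart above, and the pro-apoptotic gene Bbc3 were called lower, against 0.891% of all genes. Bbc3 was 3.82, 3.87, 2.91 and 3.72 RPKM in HET and 2.27, 2.50, 2.15, 2.75 and 2.57 RPKM in KO libraries (log2 -0.54 ± 0.11, held in each omission).

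In limma 0 genes were called in 10 further lists. At an unadjusted p under 0.05 there were 2 of 40 interferon and MHC class I genes, 2 of 24 for glycolysis, 3 of 29 for fatty acid oxidation, 5 of 32 for cholesterol and fatty acid synthesis and 3 of 37 for the integrated stress response. There were 4 of 22 circadian clock genes, 4 of 16 histone genes, 3 of 14 for homologous recombination, 1 of 23 glucocorticoid targets and 6 of 22 for chemokines and complement. The medians of these lists ran between -0.21 for cholesterol and fatty acid synthesis and 0.16 for chemokines and complement. Among all genes, an unadjusted p under 0.05 was reached by 2571 of 11337.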

How the data were processed

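RNA libraries of 36 mice (1 mouse each) were read from a table deposited by the authors, in RPKM, with no counts and no exact 0. Per the labels' protocols, 10 ng of RNA was reverse transcribed with oligo(dT) primers and amplified for 13 to 15 cycles. Per the submitters' processing notes, Trim Galore, STAR, mm10, featureCounts and Subread were used. Their versions and the strand setting were not given in the sources used here. Values of antisense and overlapping genes are therefore uncertain. The values lack 6 directions of variation, and how they were removed was not given in the sources used here. A score deposited by the authors, each gene's correlation with Ccnd1, was not used.

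Log2 RPKM without a pseudocount was fitted with limma 3.58.1 (R 4.3.3, statmod 1.5.0) over the 15 libraries of the Ccnd1 cohort, with 1 mean per group and eBayes with trend and robust settings. The Benjamini-Hochberg adjustment ran over all 11337 genes, and a gene was called below an adjusted p of 0.05. The procedure was tested on data simulated with independent noise for each gene and library. The simulation did not include the 6 absent directions, so it cannot show whether the standard errors are too small. Tables and figures used Python 3.11.15, numpy 2.4.6, pandas 2.3.3 and matplotlib 3.10.9. The members, the lists and the naming rule were chosen with earlier results of these data known. Named were fixed genes, the 10 largest called increases and decreases whose mean reached 5 RPKM with every KO library on 1 side of the HET mean, up to 5 genes set apart per direction, and up to 2 called genes per list and direction by p. Gene model names were left out. Some genes that the rules select are not reported here. Other genes of a list are given by role. There were 45 lists, 44 with a measured gene, and 5 symbols occurred in 2 rows each. Positions are from GENCODE M21. Alternatives were other sets of libraries, pseudocounts of 1 and 0.1, filters at 1 and 5 RPKM, median-of-ratios scaling, other variance settings, a keratin covariate, a replicate block and each library left out. Fits without old WT libraries and counts without the genes set apart were added after seeing the data. Each library is a mouse, so the spread is between mice, without the part in the 6 absent directions. Those directions held part of the deviations of single libraries and 0% of the KO minus HET difference. Standard errors and p-values may therefore be too small, which was not tested.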

Additional observations from a re-analysis of the deposited data

Results flagged for a closer look

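Within groups of 4 or 5 libraries of the named genes, a Dixon test looked for 1 library far from the others, where chance marks about 1 in 20 groups. Of 128 groups, 7 were marked. The ratio of the gap to the whole range is given for each. In HET, Comp was 7.66 RPKM in HET 4 against 5.07 to 5.13 in the others (0.968). Top2a was 0.651 RPKM in HET 2 against 0.916 to 0.967 (0.863). Cox5b was 28.9 RPKM in HET 3 against 37.1 to 37.7 (0.940), and Bbc3 was 2.91 RPKM in HET 3 against 3.72 to 3.87 (0.866). In KO, Stmn1 was 3.43 RPKM in KO 2 against 5.12 to 5.90 (0.739). Cdk2 was 3.58 RPKM in KO 3 against 4.14 to 4.28 (0.815), and Nfkbid was 3.90 RPKM in KO 3 against 2.18 to 2.56 (0.726).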

How the results depend on the processing

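Depth is unknown, and the called G2/M genes lie under 1 RPKM. Of 55 called named genes, 25 kept the call in each of 9 omissions of a library, and 39 kept it with median-of-ratios scaling. The 685 calls (584 higher, 101 lower) became 327 (267, 60) with HET and KO libraries alone and 343 (213 higher) with median-of-ratios scaling. A filter at 5 RPKM left 49 lower. Replicate numbers did not pair the libraries (correlations of deviations 0.04, 0.07, -0.26 and -0.02). With the number as a replicate block there were 262 calls (219, 43), 15 ribosome biogenesis and 1 G2/M gene. Omitting a library gave 265 to 743 calls, 215 to 631 higher, 45 to 112 lower and 0 to 6 G2/M genes. Ribosome biogenesis calls were 17 with median-of-ratios scaling. G2/M calls were 1 with HET and KO libraries alone and 0 with a filter at 1 or 5 RPKM, which leaves 7 or 2 of the genes to test. With mean log2 Krt14 and Krt5 as a covariate, standard errors rose 2.71-fold (median) and 1 gene was called, Pla1a (1 higher, 0 lower, 0 ribosome biogenesis, 0 G2/M). The list medians were then 0.44 for ribosome biogenesis (0.47 without the covariate), -0.70 for G2/M (-0.82) and 0.17 for tenocyte genes (0.87, and 0.76 with 1 call with the replicate block). The differences under it were -1.71 for Ccnd1, -0.26 and 0.26 for Krt14 and Krt5 by construction, and reversed for Ccnd3 (0.0302), Rb1 (0.0186), Actc1 (0.0243) and Atg3 (-0.0341). Cdk4 was 0.0239 with library weights. In omissions, genes near 0 and not called changed sign: Ccnd2 (-0.111 to 0.00181), Cdk4 (-0.0952 to 0.0947), Rb1 (-0.112 to 0.0560), Smad3 (-0.165 to 0.0423) and Tgfb1 (-0.249 to 0.0287).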

Other observations

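Some genes were higher or lower in KO at means under 5 RPKM and were chosen after their values were seen. Cilp2, a matrix protein of cartilage, was 1.17, 1.24, 0.739 and 0.924 RPKM in HET and 2.16, 2.88, 5.17, 2.73 and 4.00 RPKM in KO libraries and rose by 1.70 ± 0.26 on the log2 scale (limma adjusted p = 0.0028). Col11a2, a chain of cartilage collagen, rose by 1.56 ± 0.27, Myoc, myocilin, by 1.16 ± 0.25, and Penk, the enkephalin precursor gene, by 1.30 ± 0.33. Gfra2, a receptor of the GDNF family, was 2.72, 1.95, 2.45 and 2.79 RPKM in HET and 1.37, 0.956, 0.966, 1.28 and 1.38 RPKM in KO libraries and fell by 1.06 ± 0.18. Asf1b, a histone chaperone of S phase, fell by 1.14 ± 0.28 and Spc25, of the kinetochore, by 1.03 ± 0.26.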
